A study of Mus musculus with 4 samples.

Results

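Complement and coagulation are 2 protease cascades of the blood plasma whose proteins are made mostly by hepatocytes. In complement, recognition proteins bound to a microbe or a dying cell activate proteases that cleave C3, and the cascade ends with C5 to C9 assembled into a pore in the target membrane. In coagulation, vitamin K-dependent proteases act in sequence until thrombin cuts fibrinogen into fibrin, while serpins and the protein C system limit the clot and plasmin dissolves it. Many of these genes are also acute phase genes, whose transcription in the liver is set by cytokines such as interleukin 6.

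The genes described here were 17 complement genes and 21 clotting genes, chosen by their symbols, out of the 46603 genes of the table. A row was found for 37 of the 38, and Klkb1, which encodes plasma prekallikrein, was not analysed here. Total liver RNA was sequenced from 4 male mice, 2 labelled control and 2 labelled HuR hKO. All carried loxP-flanked alleles of the gene for HuR, an RNA-binding protein, on both chromosomes (HuRflox/flox, C57BL/6 J). The HuR hKO mice had received the vector AAV8-TBGP-Cre, in which the thyroxine-binding globulin promoter drives Cre recombinase in hepatocytes, and the control mice AAV8-TBGP-GFP. The series text calls the controls wild type, whereas the protocol gives them the floxed alleles and the GFP vector. The paper states that its animal studies used mice of both sexes. Both groups ate a Western diet, with 42% of its kcal from fat and 0.1% cholesterol, and drank sugar water (WDSW) for 4 weeks, and no group without the diet was analysed here. The mice were matched for age, which was not given, and the other cells of the liver, in which this promoter is not active, were not targeted.

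The libraries held between 13032095 and 19715577 counts on genes. Elavl1, which encodes HuR, had 28.4 and 25.9 CPM (counts scaled to a common library size with TMM factors) in control mice 1 and 2, and 37.7 and 34.4 CPM in mice 3 and 4. The targeted gene was thus higher in both HuR hKO livers than in both control livers. Its log2 fold change was 0.41 (unadjusted p = 0.016, adjusted p = 0.545 in edgeR's quasi-likelihood test with Benjamini-Hochberg adjustment). The paper reports a significant fall of HuR mRNA and protein in HuR hKO livers, with its loss from hepatocytes seen by immunofluorescence. The 4 libraries did not show such a fall of Elavl1. Why Elavl1 was not lower in mice 3 and 4 was not tested, and every direction below is that of the labels. The livers showed their tissue clearly, with Alb between 40980 and 45370 CPM. Levels come from whole liver, where fewer cells of a type and less RNA per cell cannot be told apart.

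C6 had the largest fitted change of the 37 genes. C6, the protein that joins C5b to begin the membrane attack complex, had a fitted level in the HuR hKO livers that was 0.505 times that of the control livers (95% interval 0.368 to 0.693). It was the only member with an unadjusted p under 0.05 in edgeR's quasi-likelihood test. That is a smaller share than the 7.43% of the 13001 genes tested (3.39% of them lower). No member had an adjusted p under 0.05, a threshold passed by 0.0231% of the genes tested, with Benjamini-Hochberg adjustment in the same test. DESeq2's Wald test gave 1 such member, C6, and limma-voom gave none. Of the 17 complement genes, 13 were fitted lower and 4 higher, and their median log2 fold change was -0.14, while the 20 clotting genes were divided evenly, 10 and 10, with a median of 0.01. Over all genes tested the median was 0.00. With TMM factors, DESeq2's size factors or upper quartile factors, 14 members were fitted higher and 23 lower. Without any scaling for library size, the unequal depths of the libraries stay in the values. The median of all genes was then 0.31, and 33 of the 37 members were fitted higher. With and without scaling, 23 members lay below the median of all genes.

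The groups did not overlap for 11 of the 37 members, lower in the HuR hKO livers (18.8% of all genes tested), 6 of them complement genes, and for 5, higher in them (19.3% of all genes tested), all of them clotting genes. All 37 members passed the filter on low counts. For most of them the fitted model gave a narrow interval for the difference. The 95% interval of the log2 fold change lay within a change of 2-fold in either direction for 36 members, C6 being the exception, and within 1.5-fold for 25. For the clotting genes, 17 of 20 intervals lay within 1.5-fold, and for the complement genes 8 of 17. The smallest exact two-sided permutation p that 2 mice against 2 allow is 0.333, so the p-values below come from a model in which edgeR pools the variation of all genes.

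**Figure D1:**
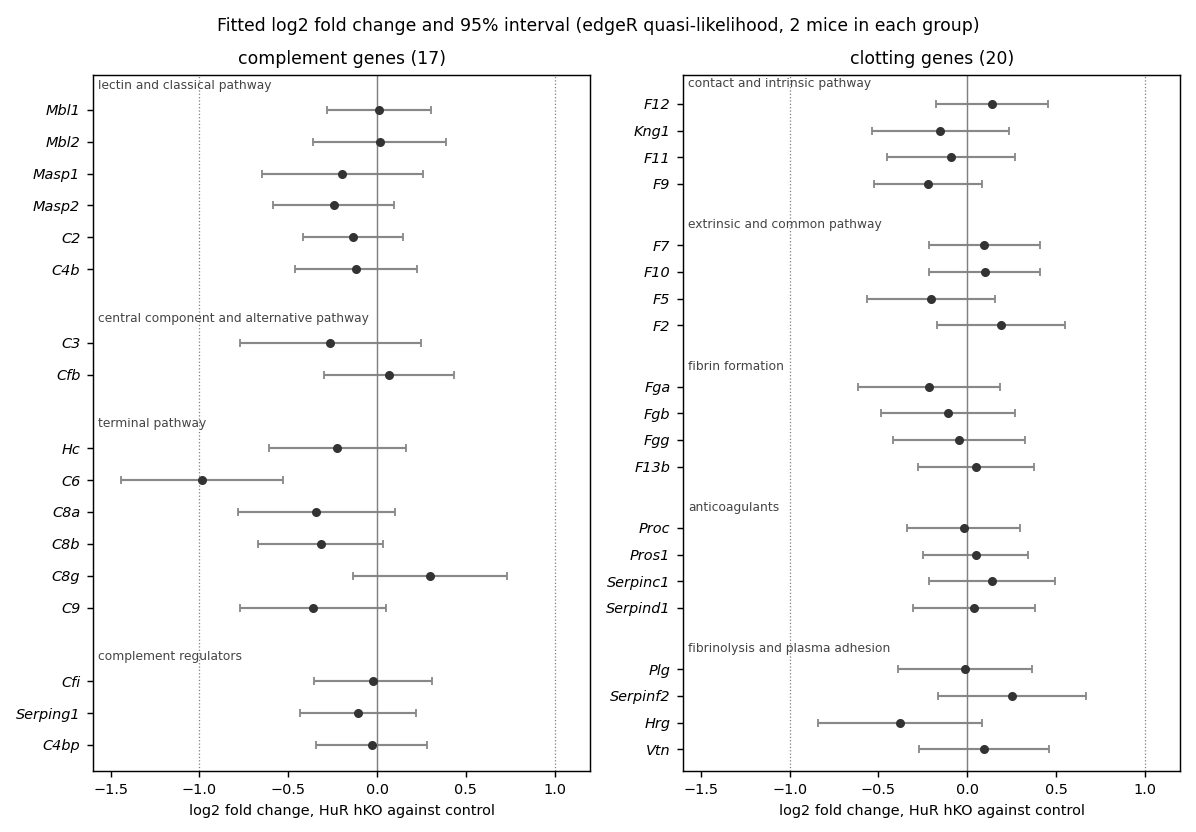
Fitted log2 fold change of HuR hKO against control (horizontal axis) for each complement gene (left) and clotting gene (right), by role. Points are the fit, bars its 95% interval and dotted lines a change of 2-fold; the interval of C6 lies from -1.44 to -0.53, and those of the other 36 genes include 0.

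**Figure D2:**
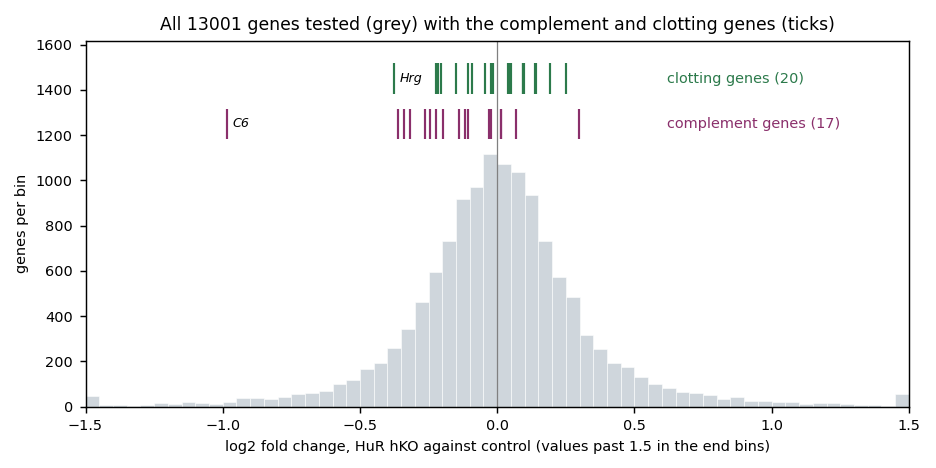
Number of genes per bin of log2 fold change (HuR hKO against control) for the 13001 genes tested, in grey, with a tick for each of the 17 complement and 20 clotting genes. With the scaling used, the clotting ticks lie between -0.38 and 0.25 and the complement ticks between -0.99 and 0.30, of which C6 is the lowest.

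The lectin pathway begins with the mannose-binding lectins, which recognise sugars on microbes. Mbl1 had 145 and 152 CPM in the control livers and 144 and 156 CPM in the HuR hKO livers. Mbl2 had 251 and 331 CPM in the control livers and 300.1 and 288 CPM in the HuR hKO livers. Neither separated the groups, and their fitted log2 fold changes were 0.01 and 0.02. Masp2, the lectin-bound protease that cleaves C4 and C2, had 211 and 242 CPM in the control livers and 174 and 208 CPM in the HuR hKO livers. Masp1, which activates Masp2, had the lowest level per transcript length of the 37 genes, 5.10 CPM per kb, and ranged from 23.3 CPM in control mouse 2 to 35.0 CPM in control mouse 1. The gap between the control mice thus spanned both HuR hKO values of Masp1. C2 and C4b form the protease that cleaves C3 in the classical and lectin pathways. C2 was between 75.1 and 76.8 CPM in the control livers and between 67.5 and 70.5 CPM in the HuR hKO livers, and C4b between 1287 and 1346 CPM and between 1196 and 1231 CPM. For Masp2, C2 and C4b both HuR hKO livers lay below both control livers, by a small margin, and their log2 fold changes of -0.24, -0.14 and -0.12 had an adjusted p of at least 0.755 in edgeR's quasi-likelihood test.

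C3, on which all routes of activation converge, had 3988 and 2683 CPM in the control livers and 2987 and 2574 CPM in the HuR hKO livers. Control mouse 1 held the highest value and the other control liver lay between the HuR hKO livers, so the groups overlapped (log2 fold change -0.26, adjusted p = 0.838). Without control mouse 1 the log2 fold change of C3 was 0.04, and without control mouse 2 it was -0.52. Cfb, the protease of the alternative pathway, had 997 and 831 CPM in the control livers and 978 and 938 CPM in the HuR hKO livers, also with overlap (log2 fold change 0.07). C2 and Cfb lie 85 bases apart on chromosome 17 and both overlap the annotated gene Gm20547 on the same strand, so how their reads were divided in counting is uncertain. C2, Masp2, Masp1, Plg, Serpinc1 and Serpind1 each overlap a protein-coding gene on the opposite strand (Zbtb12, Tardbp, Rtp4, Slc22a3, Zbtb37 and Pi4ka).

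The terminal pathway begins when C5, encoded by Hc, is cleaved and C6 binds the fragment C5b. C7, the C8 complex and several copies of C9 then join in order to form the pore. C6 (ENSMUSG00000022181) lies on the plus strand of chromosome 15 from 4727175 to 4814967 (GRCm38, GENCODE M21), and C9 lies 1630 kb further along it. C8a and C8b, the alpha and beta chains of C8, are 11.1 kb apart on chromosome 4. The 250 bases before the start sites of C6, C9, C8a and C8b, which make parts of the same pore, are shown. C6 had the largest fitted change and the other 3 smaller ones. No difference between these genes was tested, and no link of their sequences to their levels was tested. The windows are RefSeq sequences of GRCm38.p6, and for C6 and C9 the RefSeq start lies inside the GENCODE gene. Capitals mark matches, on either strand, to 4 liver factor motifs: GTTAAT (the core of the HNF1 site), TGTTTNC (FOXA), TTGCNNAA (C/EBP) and TTCNNNGAA (STAT).
C6, chr15:4726960-4727209, plus strand: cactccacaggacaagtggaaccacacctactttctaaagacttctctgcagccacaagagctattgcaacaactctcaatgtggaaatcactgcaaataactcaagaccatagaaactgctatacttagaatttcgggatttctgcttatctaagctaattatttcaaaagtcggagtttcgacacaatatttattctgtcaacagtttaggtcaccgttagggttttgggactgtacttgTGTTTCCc
C9, chr15:6445096-6445345, plus strand: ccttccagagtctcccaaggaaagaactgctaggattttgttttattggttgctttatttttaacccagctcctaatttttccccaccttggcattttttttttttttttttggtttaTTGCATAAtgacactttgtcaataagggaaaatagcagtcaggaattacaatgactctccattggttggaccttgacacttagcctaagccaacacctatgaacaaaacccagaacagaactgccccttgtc
C8a, chr4:104876399-104876648, minus strand: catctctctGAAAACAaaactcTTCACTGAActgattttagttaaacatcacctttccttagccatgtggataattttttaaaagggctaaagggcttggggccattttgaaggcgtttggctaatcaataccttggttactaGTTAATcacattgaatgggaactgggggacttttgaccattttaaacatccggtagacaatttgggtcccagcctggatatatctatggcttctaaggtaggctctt
C8b, chr4:104766067-104766316, plus strand: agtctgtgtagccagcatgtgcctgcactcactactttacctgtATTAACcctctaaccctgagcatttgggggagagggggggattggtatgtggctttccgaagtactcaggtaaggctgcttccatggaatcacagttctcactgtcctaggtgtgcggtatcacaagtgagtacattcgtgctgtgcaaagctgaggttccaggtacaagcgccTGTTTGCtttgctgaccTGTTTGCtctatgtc
In C6 the window held 1 match, to FOXA, which began 8 bases before the start. C9 held 1, to C/EBP, C8a held 3, to FOXA, STAT and HNF1, and C8b held 3, a pair of FOXA matches and 1 to HNF1. Promoter windows were found for 29 of the 38 genes. GTTAAT was in 8 of them and in 7.49% of the 27025 windows of all genes, TGTTTNC in 9 and in 19.9%, TTGCNNAA in 8 and in 10.8%, and TTCNNNGAA in 6 and in 8.13%. No motif was shared by C6 and C9, and a match is a run of letters, not a site shown to be bound.

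C6 had 2776 and 1941 counts in the control livers and 1428 and 1490 counts in the HuR hKO livers. In CPM these were 209 and 145 against 99.6 and 79.1, or 177 ± 45.3 CPM (SD, n = 2) and 89.4 ± 14.5 CPM (SD, n = 2). Both HuR hKO livers lay below both control livers, and the lower control liver was above the higher HuR hKO liver by more than the HuR hKO livers differed from each other, though by less than the control livers did. The log2 fold change of C6 was -0.99 (standard error 0.20, unadjusted p = 0.00105, adjusted p = 0.20 in edgeR's quasi-likelihood test with Benjamini-Hochberg adjustment). The adjusted p of C6 ranged from 0.000935 with DESeq2's Wald test to 0.982 without mouse 4 over the settings tried, and was also under 0.05 with no filter on low counts (0.00142) and without control mouse 2 (0.0216). C6 was lower, with an unadjusted p under 0.05, in every one of these settings, and its log2 fold change lay between -1.22 (without control mouse 2) and -0.69 (no scaling).

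**Figure D3:**
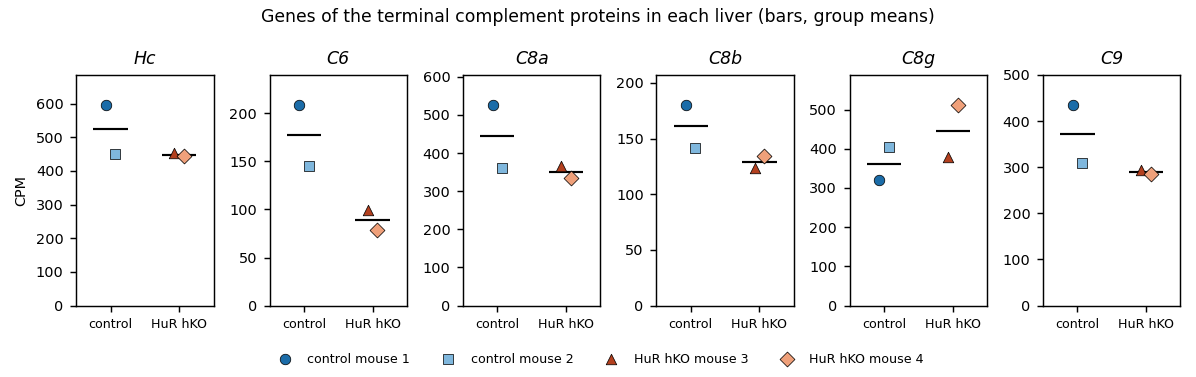
Level in CPM (vertical axes, each from 0) of the 6 genes of the terminal complement proteins in each of the 4 livers, with a bar at each group's mean. C6 lies at 209 and 145 in the control livers and at 99.6 and 79.1 in the HuR hKO livers; for Hc, C8a, C8b and C9 control mouse 1 is the highest and the other 3 livers lie close together.

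The other terminal pathway genes among the members had smaller fitted changes than C6, for which control mouse 1 was also the highest. Hc had 597 and 451 CPM in the control livers and 454 and 444 CPM in the HuR hKO livers. C8a had 527 and 360.2 CPM in the control livers and 367 and 334 CPM in the HuR hKO livers. C9, whose product polymerises to line the pore, had 435 and 309.8 CPM against 295 and 286 CPM. In all 3 genes control mouse 1 was the highest, and control mouse 2 lay near the HuR hKO livers. C8b had 180.5 and 142 CPM in the control livers and 124 and 134 CPM in the HuR hKO livers. For C8b and C9 the groups did not overlap, lower in the HuR hKO livers. Their log2 fold changes were -0.32 (adjusted p = 0.684) and -0.36 (adjusted p = 0.693), that of C8a was -0.34 (adjusted p = 0.731) and that of Hc -0.22 (adjusted p = 0.814), all from edgeR's quasi-likelihood test. When control mouse 2 was left out, C6, C8a, C8b, C9 and Masp1 had an unadjusted p under 0.05, 5 of the 17 complement genes in place of 1, in a fit where 1449 of 13572 genes did. When control mouse 1 was left out, only C6 did, and the log2 fold changes were -0.0535 for C8a, -0.107 for C9, -0.145 for C8b, -0.02 for Hc and 0.114 for Masp1. C8g, the gamma chain, a small lipocalin, was fitted higher, with 322 and 403 CPM in the control livers and 379 and 512 CPM in the HuR hKO livers (log2 fold change 0.30, adjusted p = 0.766).

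Ratios within a library do not depend on its size. Control mice 1 and 2 held 0.48 and 0.468 counts of C6 per count of C9, and mice 3 and 4 held 0.338 and 0.277. Against C8b the ratios of C6 were 1.16 and 1.02 in the control livers and 0.805 and 0.589 in the HuR hKO livers, and against Hc they were 0.35 and 0.321, and 0.22 and 0.178. In all 3 ratios C6 was lower in both HuR hKO livers than in both control livers. The ratios of C6 were taken from the same counts by which C6 was singled out, so they describe it and add no separate support. C9 per count of Hc was more even, at 0.73 and 0.687 in the control livers and 0.649 and 0.644 in the HuR hKO livers. The chains of C8 did not keep 1 ratio across livers. C8b per count of C8a lay between 0.338 and 0.403 in the 4 livers, but C8g per count of C8a was 0.61 and 1.12 in the control livers and 1.03 and 1.54 in the HuR hKO livers. C8g overlaps Fbxw5 on the opposite strand, and the use of strand in counting is not given in the sources used here.

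The regulators Cfi, Serping1 and C4bp lay close together in all livers. Cfi, which cleaves C3b and C4b, was between 351 and 399.6 CPM over the 4 livers. C4bp, its cofactor, was between 427 and 458 CPM. Serping1, the C1 inhibitor, was between 476 and 556 CPM. The groups overlapped for each, and their fitted log2 fold changes were -0.02, -0.03 and -0.11, with intervals inside 1.5-fold in either direction.

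**Figure D4:**
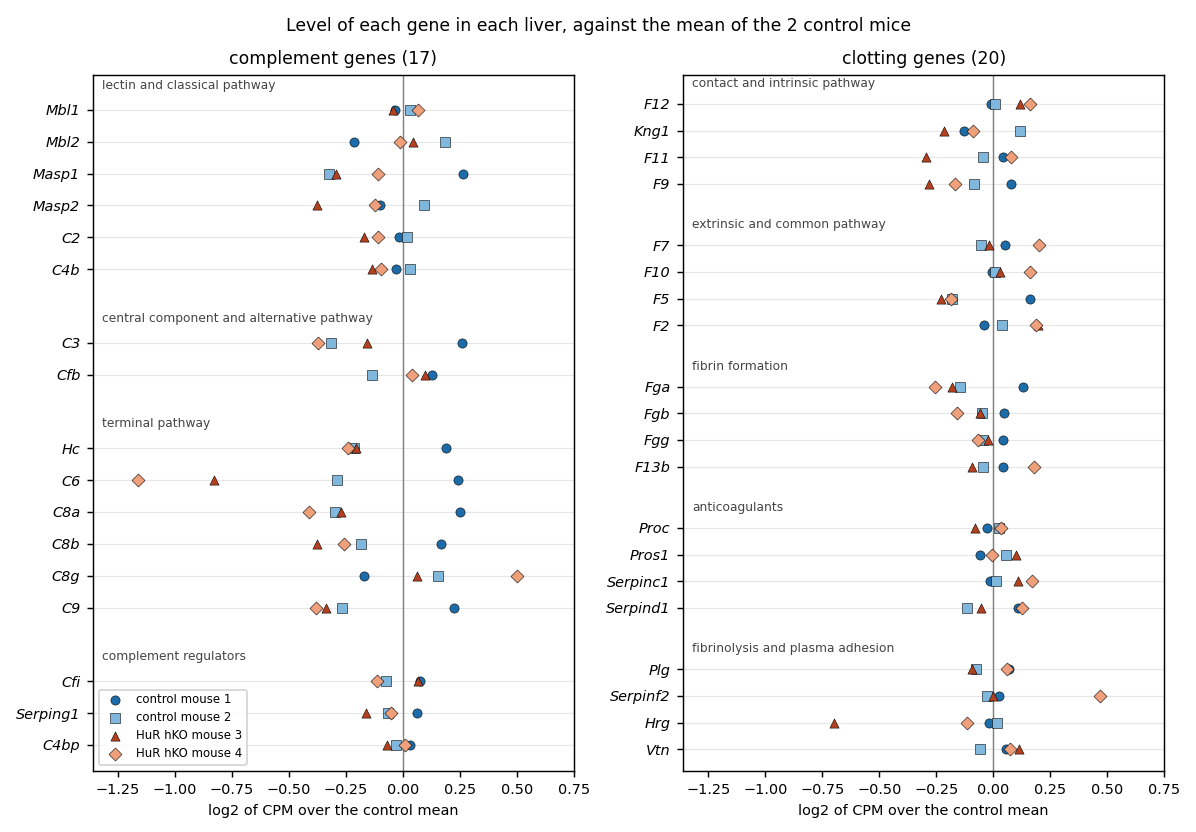
Level of each of the 37 genes in each of the 4 livers, as the log2 of its CPM over the mean of the control mice (horizontal axis), by role. Control mouse 1 (dark blue circles) is the rightmost point for 11 of 17 complement genes; the HuR hKO points of C6 are the leftmost on the left, and mouse 3 is low for Hrg and mouse 4 high for Serpinf2 on the right.

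Control mouse 1 stood apart for the complement genes. It had the highest CPM of the 4 livers for 11 of the 17 complement genes, among them C3, Cfb, Hc, C6, C8a, C8b and C9, against 6 of the 20 clotting genes and 29.1% of all genes tested. The median gap between the control mice, as an absolute log2 difference, was 0.327 for the complement genes, 0.0924 for the clotting genes and 0.217 for all genes tested. Between the HuR hKO mice these medians were 0.111, 0.115 and 0.197. Without control mouse 1 the median log2 fold change of the complement genes was -0.05 in place of -0.14. The complement genes held 1.09% and 0.866% of the counts in control mice 1 and 2, and 0.923% and 0.821% in mice 3 and 4, so the groups overlapped. The 5 markers of bile duct cells summed to 52.5 CPM in control mouse 1 and to 27.5, 39.6 and 49.8 CPM in mice 2, 3 and 4, with Krt19 highest in it (12.2 CPM against 0.373 to 1.80 CPM) and Sox9 lowest (2.56 CPM against 2.58 to 3.45 CPM), while the 8 hepatocyte markers summed to 69985 CPM in it and to between 64544 and 73507 CPM in the others. The 5 T and B cell markers, all at low levels, summed to 1.51 CPM in control mouse 1 and to 5.23, 5.09 and 5.52 CPM in mice 2, 3 and 4. The part of these differences in the complement values was not tested.

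The contact and intrinsic pathway starts with factor XII. F12 had 521 and 527 CPM in the control livers and 568 and 585 CPM in the HuR hKO livers. Kng1, which encodes the high molecular weight kininogen that carries prekallikrein and factor XI, had 1560 and 1853 CPM against 1467 and 1605 CPM. F11 was between 37.7 and 48.8 CPM over the 4 livers, with the groups overlapping. F9, the factor lacking in haemophilia B, had 160.1 and 143 CPM in the control livers and 125 and 135 CPM in the HuR hKO livers. The groups separated for F12, higher in the HuR hKO livers, and for F9, lower in them. Their log2 fold changes were 0.14 (adjusted p = 0.857) and -0.22 (adjusted p = 0.75).

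The extrinsic and common pathway runs from factor VII through factors X and V to prothrombin. F7 was between 95.8 and 114 CPM over the 4 livers, and F10, its neighbour 1498 bases away on chromosome 8, between 379.7 and 426 CPM. Their fitted log2 fold changes were alike, 0.10 and 0.10. F2, which encodes prothrombin, had 1713 and 1813 CPM in the control livers and 2019 and 2007 CPM in the HuR hKO livers. F2 was higher in both HuR hKO livers, with a log2 fold change of 0.19 (adjusted p = 0.826). F5, the cofactor of factor X, had 424 and 335 CPM in the control livers and 324 and 334 CPM in the HuR hKO livers, where control mouse 1 was again the high value. Of the 6 vitamin K-dependent genes (F2, F7, F9, F10, Proc and Pros1), 4 were fitted higher and 2 lower, and none had an unadjusted p under 0.05. All 6 intervals lay within 1.5-fold.

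Fibrinogen is built from 3 chains whose genes lie side by side on chromosome 3. Fgg had the highest level per transcript length of all 37 genes, 1452 CPM per kb, followed by Vtn with 1210, F2 with 949.7 and Fga with 918 CPM per kb. Fga had 2796 and 2308 CPM in the control livers and 2252 and 2141 CPM in the HuR hKO livers. Fgb had 2809 and 2628 CPM in the control livers and 2610 and 2438 CPM in the HuR hKO livers. Fgg had 2575 and 2422 CPM against 2457 and 2388 CPM. Fga and Fgb were lower in both HuR hKO livers by margins smaller than the gap between the control livers, and their log2 fold changes were -0.22 (adjusted p = 0.825) and -0.11 (adjusted p = 0.911), and that of Fgg was -0.04 (adjusted p = 0.97). The chains stayed in near-constant proportion, with 0.863 to 0.996 counts of Fga and 0.917 to 0.98 counts of Fgg per count of Fgb over the 4 livers. The highest of the Fga ratios was that of control mouse 1. F13b, the carrier subunit of the fibrin-stabilising factor XIII, was between 141 and 170.3 CPM.

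The anticoagulant genes differed little between the livers. Serpinc1, which encodes antithrombin, had 1667 and 1696 CPM in the control livers and 1814 and 1894 CPM in the HuR hKO livers. Serpind1, heparin cofactor II, was between 329 and 389 CPM, Proc, protein C, between 481 and 522 CPM and Pros1, its cofactor protein S, between 51.7 and 57.7 CPM. Only Serpinc1 of these 4 separated the groups, higher in the HuR hKO livers (log2 fold change 0.14, adjusted p = 0.874).

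Among genes of fibrinolysis and plasma adhesion, 2 had a value in 1 HuR hKO liver that lay far from the other 3 livers. Hrg, histidine-rich glycoprotein, had 759.5 and 779 CPM in the control livers and 474 and 710.4 CPM in mice 3 and 4, so that mouse 3 was low. Serpinf2, the inhibitor of plasmin, had 596 and 574 CPM in the control livers and 584 and 808 CPM in mice 3 and 4, so that mouse 4 was high. Hrg had a log2 fold change of -0.38 (adjusted p = 0.713) and Serpinf2 of 0.25 (adjusted p = 0.801). Without mouse 4 the log2 fold change of Hrg was -0.70 (unadjusted p = 0.00693), and without mouse 3 that of Serpinf2 was 0.45 (unadjusted p = 0.0365), each then the 1 clotting gene with an unadjusted p under 0.05. Without the other HuR hKO mouse they were -0.132 for Hrg (without mouse 3) and -0.00115 for Serpinf2 (without mouse 4). Plg, which encodes plasminogen, was between 1794 and 2009 CPM, and Vtn, vitronectin, between 1960 and 2208 CPM. The clotting genes held 2.18% and 2.01% of the counts in the control livers and 2.10% and 2.00% in the HuR hKO livers.

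Positive acute phase genes are those whose level goes up in inflammation. Of the 9 among the members (Fga, Fgb, Fgg, C3, C4b, Cfb, C9, Serping1 and Hc), 8 were fitted lower and 1, Cfb, higher. Their median log2 fold change was -0.12, and none had an unadjusted p under 0.05. Without scaling for library size 7 of those 8 were fitted higher, when the median of all genes was 0.31. Of 10 acute phase genes outside the complement and clotting lists, 6 were fitted higher (Saa1, Saa2, Saa3, Lcn2, Hp and Itih4). An unadjusted p under 0.05 was found for 5 of them. The other 4 were fitted lower (Hpx, Orm1, Crp and Apcs), and 1 of them, Hpx, had an unadjusted p under 0.05. Of all genes tested 7.43% had such a p. Hp, haptoglobin, had 2194 and 2042 CPM in the control livers and 2686 and 3006 CPM in the HuR hKO livers (log2 fold change 0.43, adjusted p = 0.616), and Saa1 had 40.1 and 27.0 CPM against 71.6 and 67.2 CPM (1.05, adjusted p = 0.139). Hpx, hemopexin, had 2253 and 2195 CPM against 917 and 752 CPM (-1.42, adjusted p = 0.0636). Orm1, Crp and Apcs were fitted at -0.13, -0.11 and -0.21 (0.205, 0.199 and 0.087 without scaling), beside C3, Fga, Fgb and Fgg at -0.26, -0.22, -0.11 and -0.04, and no difference between these genes was tested. The 3 negative acute phase genes Hrg, F12 and Serpinc1 were fitted at -0.38, 0.14 and 0.14.

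The wider complement list held 34 further genes, of which 29 passed the filter. None was higher and 2 were lower with an unadjusted p under 0.05. Of all genes tested, 7.43% had such a p and 3.39% were lower with it, so the count is near that of genes at large. C4a, a near-identical copy of C4b that encodes the sex-limited protein of mice, had 156 and 95.3 CPM in the control livers and 76.9 and 50.8 CPM in the HuR hKO livers (log2 fold change -0.98, unadjusted p = 0.00548, adjusted p = 0.414 in edgeR's quasi-likelihood test). Its count per count of C4b was 0.121 and 0.0708 in the control livers and 0.0643 and 0.0413 in the HuR hKO livers. Reads common to these 2 copies could be divided between them in counting, so the level of C4a is uncertain. Without mouse 4 the count of genes with an unadjusted p under 0.05 was 0 in place of 2, and without control mouse 1 it was 4.

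The next genes of the complement list by p were Vsig4, C1s1, Colec11 and C7. Vsig4, the C3b receptor of Kupffer cells, had 9.86 and 7.47 CPM in the control livers and 11.7 and 11.04 CPM in the HuR hKO livers (adjusted p = 0.696). C1s1, the classical pathway protease, had 499 and 463 CPM against 379.5 and 414 CPM (adjusted p = 0.696). Colec11, a collectin, had 24.8 and 28.0 CPM against 30.4 and 32.6 CPM (adjusted p = 0.713), and C7, the pore protein that follows C6, had 1.51 and 0.821 CPM against 1.60 and 2.23 CPM (adjusted p = 0.758). Per kb of transcript C7 had a mean level of 0.576 CPM, against 46.3 CPM for C6. The 3 chains of C1q, a product of macrophages, were fitted slightly higher, with log2 fold changes of 0.15, 0.12 and 0.10 for C1qa, C1qb and C1qc, and they were above the control livers in both HuR hKO livers.

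Of the 31 further clotting genes 25 passed the filter, and 2 were higher and 1 lower with an unadjusted p under 0.05. Such a p was found for 7.43% of all genes tested, and no excess in this list was tested. Anxa2, the plasminogen-binding annexin, had 14.98 and 18.5 CPM in the control livers and 22.0 and 22.5 CPM in the HuR hKO livers (log2 fold change 0.41, unadjusted p = 0.0298, adjusted p = 0.60). Serpina10, the protein Z-dependent inhibitor of factor X, had 121 and 114 CPM against 139 and 158 CPM (0.34, unadjusted p = 0.0323, adjusted p = 0.611). F2r, the thrombin receptor, had 29.8 and 26.7 CPM against 20.4 and 23.9 CPM (-0.35, unadjusted p = 0.0443, adjusted p = 0.653). Without any 1 of control mouse 1, mouse 3 and mouse 4, 1 further clotting gene had an unadjusted p under 0.05 (Thbd, Serpina10 and F2r in turn, of which Thbd was named after its value was seen). Vwf, Vkorc1l1 and Plau were next, with adjusted p-values of 0.755, 0.76 and 0.77. Kng2, the second kininogen gene, was fitted in the other direction from Kng1 (0.17 against -0.15), and its counts per count of Kng1 were 0.137 and 0.131 in the control livers and 0.171 and 0.163 in the HuR hKO livers. Ggcx and Vkorc1, the enzymes of the vitamin K cycle that activate the clotting proteases, were fitted at 0.03 and 0.07.

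Markers of other liver cells were read beside these values. The 8 hepatocyte markers had 4 fitted higher and 4 lower with no unadjusted p under 0.05. The 6 Kupffer cell markers summed to 136 and 140 CPM in the control livers and 161 and 148 CPM in the HuR hKO livers. Of these markers 4 were fitted higher and 2 lower, Marco at -0.92 and Adgre1 at -0.20. The 6 markers of sinusoidal endothelium, which makes Vwf and factor VIII, summed to 209 and 183 CPM and to 234 and 206 CPM. The 6 stellate cell markers summed to 176 and 178 CPM in the control livers and 189 and 236 CPM in the HuR hKO livers. Of these stellate markers 5 were fitted higher, 1 of them with an unadjusted p under 0.05, and 1 lower. Platelets carry clotting proteins, but their 6 markers summed to between 3.34 and 4.39 CPM in the 4 libraries, and Gp1bb was at 0 in 3 of them. The 5 erythroid markers stand for the blood in the liver. They summed to 363 and 450 CPM in the control livers and 488 and 711 CPM in the HuR hKO livers. Of these 5, 3 were higher with an unadjusted p under 0.05, a threshold passed by 7.43% of all genes tested. The 5 neutrophil markers summed to between 1.54 and 2.24 CPM, and of the pancreas markers only Cela1 had over 1 CPM. The part of blood content in the clotting and complement values was not tested. The fold changes of the 37 members went with base composition, with a Pearson correlation across genes of 0.383 with the GC content of the transcript (Spearman 0.427) and of -0.30 with its length (Spearman -0.352), against 0.135 and -0.155 over 12955 genes. Genes are not independent replicates, and the 4 libraries are common to all of these points. With offsets for GC content and length, a setting chosen after seeing the data, C6 was at -0.96 (unadjusted p = 0.00127).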

How the data were processed

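Total liver RNA of 4 mice was sequenced, and the authors deposited whole-number counts per Ensembl gene not normalized, with 1 column for every mouse and 0 columns of no known sample. The submitters' processing notes name RSEM, with no version, and GRCm38. RSEM gives estimated counts, so the deposited counts may be rounded estimates, which the values cannot show. The aligner, annotation and use of strand are not given in the sources used here. The authors name Student's test for comparisons of 2 groups. For the sequencing they give cutoffs on fold change and p, with no test named in the sources used here. A count model was used here because of the unit and the number of mice.

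Symbols came from a table of Ensembl identifiers (46005 of 46603 matched), coordinates and transcripts from GENCODE M21 (GRCm38; 1 protein-coding transcript a gene, principal where marked, then the longest), and promoters from RefSeq (GRCm38.p6). The identifier of Klkb1 matched no row. Counts were scaled with TMM factors (0.957 to 1.04) and filtered in edgeR 4.0.16 (R 4.3.3; minimum count 10, total 15), and its quasi-likelihood test was run on 13001 genes, with p-values adjusted over all of them by the Benjamini-Hochberg method. The members and lists were chosen with earlier results of these data known. Genes named are the members, Elavl1, up to 6 of each further list with the smallest p, and the acute phase and marker genes, from fixed lists, and 1 gene that this rule covers is not reported here. A count of 0 allows up to 3 counts, which is 0.159 to 0.226 CPM, and intervals of this kind cover counting error only.

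Alternatives were DESeq2's size factors, upper quartile factors, no scaling, no filter, 10 counts in every library, DESeq2's Wald test (1.42.0), limma-voom (3.58.1), leaving out each mouse and, chosen after seeing the data, offsets for GC content and transcript length (known for 99.6% of genes). The edgeR test was also tried on simulated data with the mean levels and library sizes of these mice. Each simulated gene varied as the trend over all genes gives for its level. Genes that vary more than that trend were not represented, and their recovery was not tested. At an adjusted p under 0.05 it recovered 14.5% of genes given a 1.5-fold change. For a 2-fold change it recovered 61.3%. Tables used numpy 2.4.6 and pandas 2.3.3, and figures matplotlib 3.10.9, in python 3.11.15.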

Additional observations from a re-analysis of the deposited data

How the results depend on the processing

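No paired analysis was possible because the control mice (1 and 2) and the HuR hKO mice (3 and 4) share no number. The number of complement genes with an unadjusted p under 0.05, 1 in the fit reported, was 2 with DESeq2's Wald test, 4 with no filter on low counts and 1 to 5 with a mouse left out. For the clotting genes it was 1 in place of 0 with no filter and 0 to 1 with a mouse left out. For the further complement genes it was 5 in place of 2 with no scaling for library size, 1 with offsets for GC content and length and 0 to 4 with a mouse left out, and for the further clotting genes 5 in place of 3 with no scaling, 1 with DESeq2's Wald test and 1 to 2 with a mouse left out. With no scaling the median log2 fold change was 0.18 for the complement genes and 0.33 for the clotting genes, against 0.31 for all genes. With a mouse left out the median of the complement genes lay between -0.16 and -0.0532, and that of the clotting genes between -0.0561 and 0.0491. C6 was lower in every setting. Genes past an unadjusted p under 0.05 numbered 966 in all, 575 with DESeq2's Wald test, 1397 with no scaling, 1466 with no filter and 566 to 1449 with a mouse left out. An adjusted p under 0.05 was found for 3 genes, 85 with DESeq2's Wald test, 161 with no filter, 155 with no scaling and 0 to 73 with a mouse left out.

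With no scaling 19 members and 2 further genes turned from lower to higher, as the median of all genes moved up. Their log2 fold changes were then C2 0.18, C3 0.0381, C4b 0.20, C4bp 0.29, C8b 0.00436, Cfi 0.28, F11 0.24, F5 0.11, F9 0.10, Fga 0.0928, Fgb 0.20, Fgg 0.27, Hc 0.0893, Kng1 0.17, Masp1 0.13, Masp2 0.0866, Plg 0.31, Proc 0.30, Serping1 0.22, C1s1 0.0438 and Vkorc1l1 0.11. Offsets for GC content and length turned C4bp (0.0465), Mbl1 (-0.034) and Mbl2 (-0.0492), all fitted near 0. With a mouse left out, 14 members changed direction in at least 1 fit, and their log2 fold changes ranged from -0.52 to 0.0392 for C3, -0.0559 to 0.193 for Cfb, -0.13 to 0.0669 for Cfi, -0.29 to 0.0627 for F11, -0.0911 to 0.162 for F13b, -0.0185 to 0.183 for F7, -0.46 to 0.11 for Masp1, -0.0434 to 0.0497 for Mbl1, -0.18 to 0.23 for Mbl2, -0.0911 to 0.0484 for Plg, -0.0794 to 0.0192 for Proc, -0.0246 to 0.107 for Pros1, -0.0668 to 0.143 for Serpind1 and -0.00115 to 0.45 for Serpinf2. The cause was not tested. With 1 mouse left in a group, that mouse was assumed to vary like those of the other group. The depth of 13032095 to 19715577 counts left every member above 23 CPM in every library, far over the level that a count of 0 allows.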
